A study of Mus musculus with 6 samples.

Results

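The Dlk1-Dio3 locus is an imprinted domain of mouse chromosome 12, and it is described here in embryonic cortex in which GSK-3 was removed from excitatory neurons. Its members were chosen by name, with earlier results of these arrays known: Meg3, Rian and Mirg, the long noncoding RNAs made from the maternal chromosome, Mir341, Mir493 and Mir453, microRNA genes of the same strand, and Dlk1 and Dio3, the protein-coding genes made mainly from the paternal chromosome. The mutant-minus-control differences that follow for these members are from the same arrays that led to the choice, so they are given as a description and carry no test. Of the 8 members listed, 7 had an array probe set (a transcript cluster) annotated with that gene alone, out of 22180 genes so measured, and each member was read from the brightest such cluster. Mirg was found only on clusters that carry further names, which are described separately.

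RNA came from dorsal cortex of embryos at embryonic day 18 and was measured on 6 Affymetrix Mouse Gene 2.0 ST arrays, 1 per embryo. The 3 Gsk3:Neurod6 mutants (replicates 5, 6 and 7) were Gsk3a -/-, Gsk3b loxp/loxp and carried Neurod6-Cre, which acts in intermediate progenitors and newborn excitatory neurons and removes exon 2 of Gsk3b. The 3 controls (replicates 2, 3 and 4) were also Gsk3a -/- and Gsk3b loxp/loxp but had no Cre, so all 6 embryos lacked Gsk3a, and loss of Gsk3b cannot be told apart from presence of the Cre allele. Embryos came from 2 litters that the sources used here do not assign to embryos. The dissected tissue also holds cells that this driver spares, such as interneurons, glia and vessel cells. Each value is therefore a mean over cells, in which fewer cells of a type and less RNA per cell cannot be told apart.

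In this domain the maternal chromosome is transcribed on 1 strand through Meg3, Rian and Mirg, and many microRNAs and small nucleolar RNAs (snoRNAs) are cut out of these long RNAs. A control region that carries a methyl mark on the paternal chromosome only decides which parental copy makes which RNAs. The paternal chromosome makes DLK1, a membrane protein related to Notch ligands, RTL1, a protein derived from a retrotransposon, and DIO3, the enzyme that inactivates thyroid hormone. The noncoding RNAs are abundant in brain, and microRNAs of the cluster that begins with Mir379 are known for roles in dendrite growth and neuronal migration. A microRNA finds its targets mainly by pairing through its seed, bases 2 to 8 from the 5′ end.

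The mature forms made from the 3 member genes are shown because 2 of these genes stood highest among the members in their difference between groups. Each is given 5′ to 3′ from RefSeq (build GRCm38.p6, plus strand) with the seed in capitals. The mature forms of Mir493 lie at chr12:109580283-109580305 (3p) and chr12:109580243-109580261 (5p), those of Mir341 at chr12:109611556-109611576 (3p) and chr12:109611521-109611541 (5p), and that of Mir453 at chr12:109735669-109735692.
mmu-miR-493-3p: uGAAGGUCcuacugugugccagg
mmu-miR-493-5p: uUGUACAUgguaggcuuuc
mmu-miR-341-3p: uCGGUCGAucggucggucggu
mmu-miR-341-5p: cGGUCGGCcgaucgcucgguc
mmu-miR-453: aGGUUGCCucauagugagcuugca

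All 43 microRNA genes of the locus that were tested had a mature sequence in the RefSeq table, 81 mature forms in all, with 73 different seeds. A seed was shared by more than 1 of these genes in 8 cases. One of them joins Mir453 with Mir496a, whose 5p form also has GGUUGCC. Another joins the neighbors Mir379 and Mir411, whose 3p forms have the same seed and differ further along. Mir379 is at chr12:109709102-109709123 for this form and Mir411 at chr12:109710225-109710246.
mmu-miR-379-3p: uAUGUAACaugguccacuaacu
mmu-miR-411-3p: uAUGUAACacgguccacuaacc

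Arrays of this kind read out whole transcripts. A cluster at a microRNA gene can be lit by the long host RNA, the hairpin or the mature form, and these cannot be told apart. Genes cut from the same host RNA are likewise not independent of each other. Values are on the log2 scale as deposited, and levels of different genes cannot be compared, since their probes differ in brightness. A level of 7.35, the 95th percentile of 1430 olfactory, vomeronasal and taste receptor genes, was taken as the background level, and 12942 genes lay above it.

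Rian, the long RNA that hosts the snoRNAs of the domain, had values of 10.92, 10.94 and 10.97 in Gsk3:Neurod6 cortex, against 10.59, 10.68 and 10.70 in control cortex. All 3 mutant values lay above all 3 control values. The mean was higher in mutants by 0.29 ± 0.06 (log2 difference ± SE from limma), a ratio of 1.22. A second cluster, annotated with Rian and the snoRNA gene DQ267100, had 9.96, 10.11 and 10.11 in mutants, against 9.57, 9.48 and 9.98 in controls. Its mean was higher in mutants by 0.39 ± 0.14, but the groups overlapped, with control replicate 4 above mutant replicate 5.

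Mir341 lies just downstream of the start of Rian. It had values of 10.52, 10.55 and 10.65 in mutants, against 10.19, 10.14 and 10.32 in controls. The groups again did not overlap, and the difference of 0.36 ± 0.07 was a ratio of 1.28. Mir493, which lies between Meg3 and Rian, had 8.14, 8.07 and 8.29 in mutants, against 7.75, 7.43 and 7.67 in controls. Its groups did not overlap either, with a difference of 0.55 ± 0.10 and a ratio of 1.46.

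Mir453, close to the start of Mirg, had the largest mean difference among the members, and that difference rested mostly on 1 array. Its values were 9.22, 9.32 and 9.07 in mutants, against 8.84, 7.65 and 9.05 in controls. The groups did not overlap, but the lowest mutant and the highest control were almost equal, and control replicate 3 was far below the rest. The difference was 0.69 ± 0.32 with this array and 0.26 ± 0.10 without it. The other 3 members just described had differences of 0.30 for Rian, 0.32 for Mir341 and 0.45 for Mir493 without control replicate 3.

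**Figure D1:**
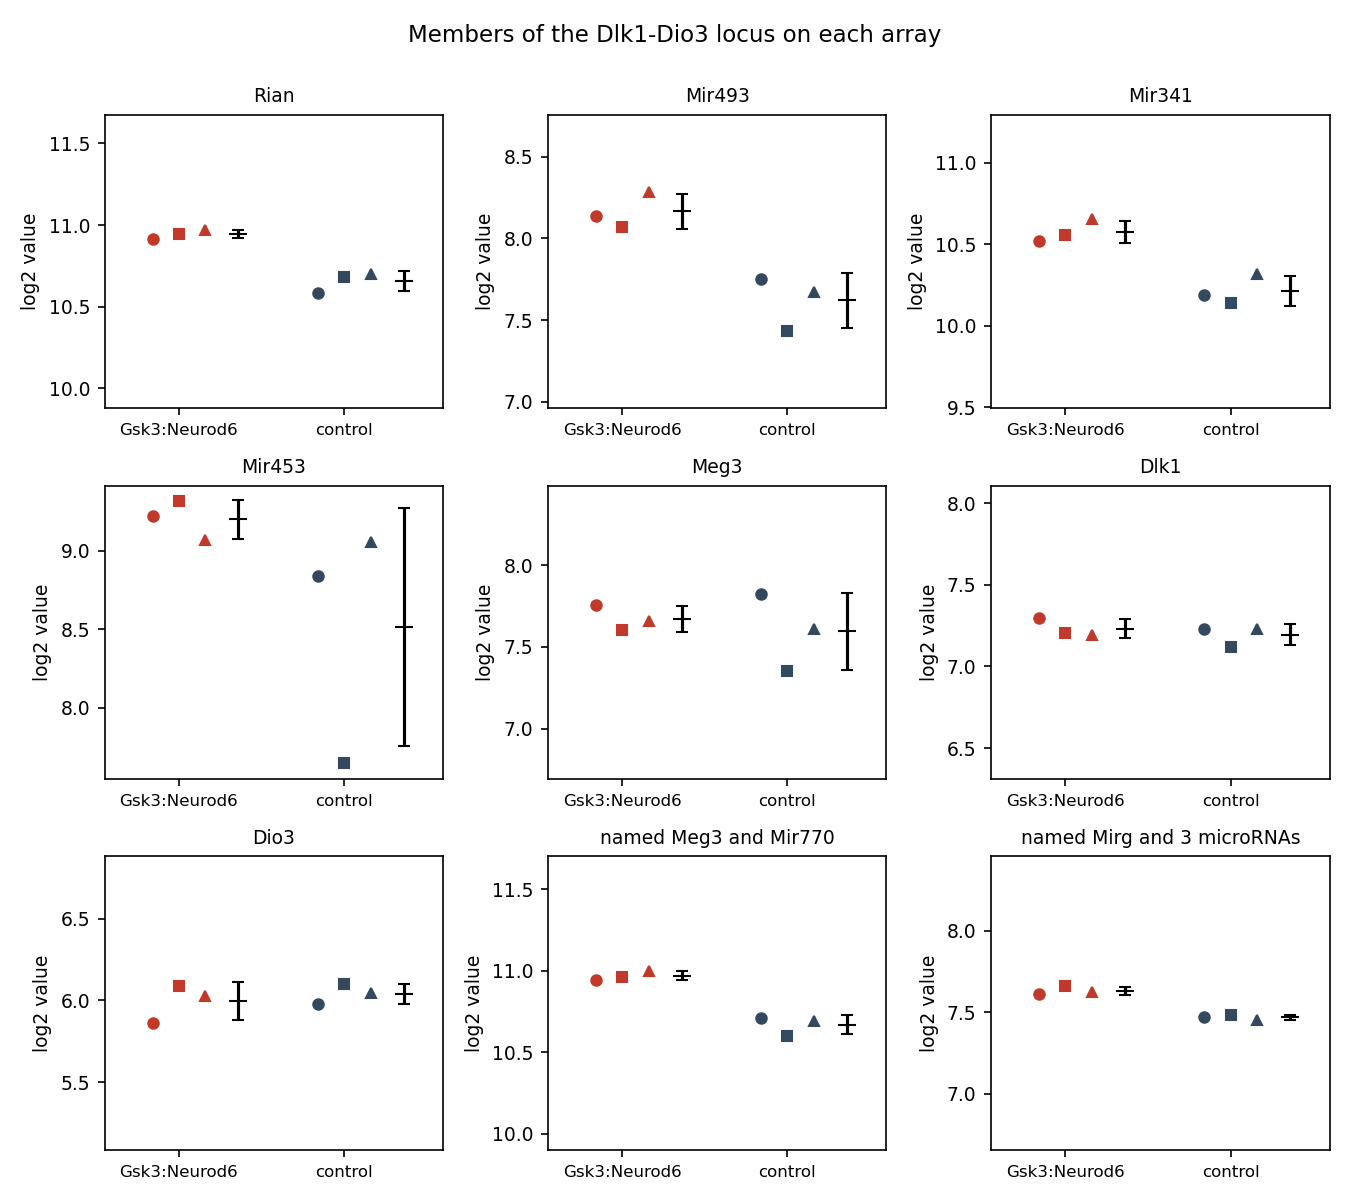
Log2 value on each array for the 7 members with a cluster of their own and for clusters named after Meg3 and Mir770 and after Mirg and 3 microRNAs. Gsk3:Neurod6 mutants (red; replicates 5, 6 and 7 as circle, square and triangle) are left of controls (dark; replicates 2, 3 and 4 as circle, square and triangle), and bars give mean and SD of 3 arrays. Rian, Mir341 and Mir493 are separated between groups, while Meg3, Dlk1 and Dio3 overlap and control replicate 3 of Mir453 lies at 7.65.

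Meg3, the long RNA at the start of the maternal transcription unit, was on several clusters, and they differed. The only cluster named for Meg3 alone had values of 7.76, 7.60 and 7.66 in mutants, against 7.83, 7.35 and 7.61 in controls. Mutant values lay within the range of the controls. The difference was 0.08 ± 0.12, and it was -0.04 when control replicate 3 was left out. This cluster was near the background level. In the order of cluster identifiers it also lay among genes of the opposite strand: of its 20 nearest named clusters, 17 belonged to genes on the minus strand and 3 to genes on the plus strand. Meg3 itself is on the plus strand, and the clusters of Rian, Dlk1 and Dio3 each had 20 of 20 neighbors on that strand. No source used here gives the strand that a cluster reads, so whether this cluster reads Meg3 is unknown.

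A much brighter cluster, annotated with both Meg3 and Mir770 (a microRNA gene hosted by Meg3), lay among plus-strand neighbors. It had values of 10.943, 10.963 and 10.998 in mutants, against 10.711, 10.602 and 10.693 in controls. The groups did not overlap, with a difference of 0.30 ± 0.06, close to that of Rian. A further cluster carries Meg3 together with Mir1906-1 and Mir1906-2. It had 10.78, 10.73 and 10.76 in mutants, against 10.64, 10.15 and 10.34 in controls, a difference of 0.38 ± 0.12 without overlap. Of its 20 nearest named clusters 0 were on chromosome 12, so this cluster may read another place in the genome.

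Mirg, the long RNA at the downstream end of the microRNA cluster, was on 3 shared clusters. The cluster named for Mirg, Mir369, Mir410 and Mir412 had 7.62, 7.66 and 7.62 in mutants, against 7.47, 7.48 and 7.45 in controls. These were narrow groups without overlap, 0.16 ± 0.06 apart. The cluster named for Mirg and Mir485 had 8.30, 8.38 and 8.40 in mutants, against 7.88, 7.37 and 8.04 in controls. Control replicate 3 was again the lowest value, and the difference was 0.59 with it and 0.40 without it. The cluster named for Mirg and Mir134 had 8.54, 8.71 and 8.64 in mutants, against 8.47, 8.45 and 8.58 in controls, and the groups overlapped.

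The protein-coding ends of the domain showed no such separation. Dlk1 had values of 7.30, 7.20 and 7.19 in mutants, against 7.23, 7.12 and 7.23 in controls. Dio3 had 5.86, 6.09 and 6.03 in mutants, against 5.98, 6.10 and 6.04 in controls. Both genes were below the background level and their groups overlapped, with differences of 0.04 ± 0.06 for Dlk1 and -0.05 ± 0.08 for Dio3. At such levels a difference in either gene may not be detectable. Rtl1, the paternal protein-coding gene between them, had 6 clusters, all shared with microRNA genes such as Mir127, Mir433, Mir431 and Mir434, which lie on the opposite strand. The strand that each cluster reads is not given, so these values cannot be assigned to Rtl1 or to the microRNA genes. The mutant mean was higher on 5 of them. The other, annotated with Rtl1 and Mir3071 only, had a difference of -0.02 ± 0.10 with overlap. By identifier it lay near the cluster named for Meg3 alone, whose neighbors were mostly on the minus strand. The brightest of the 6, annotated with Rtl1 and Mir432, had 8.89, 8.71 and 8.72 in mutants, against 8.60, 8.56 and 8.51 in controls. This cluster, that with Mir431 and that with Mir433 and Mir127 were higher without overlap, and the others overlapped. Of 12 clusters with several names including a gene of the domain, 7 were higher (58.3%) and 0 lower without overlap, against 6.34% and 6.93% of all genes. They include that of Meg3 with Mir1906-1 and Mir1906-2, and the count is a description only.

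Among the 7 members with a cluster of their own, the groups did not overlap with mutants higher in 4, Rian, Mir341, Mir493 and Mir453, and with mutants lower in none. Over all 22180 genes, mutants were higher without overlap in 6.34% and lower without overlap in 6.93%. None of the 7 passed an adjusted p of 0.05 in the limma fit over all genes, which 1 gene, the predicted gene Gm3279, passed (0.00451% of genes). Since the members were chosen on this contrast, nothing is read from these counts.

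The remaining genes of the domain are no members, but the domain was itself chosen with earlier results of these arrays known. They also share host RNAs with the members, so the counts that follow are a description and no independent test. Between Dlk1 and Dio3, in the order of the mouse gene table, 47 other genes were tested, most of them microRNA genes. The mutant mean was higher in 41 of them, against 49.7% of all genes tested, and the median difference was 0.21, against -0.0007 over all genes. Groups did not overlap in 20, all with mutants higher (42.6%, against 6.34% of all genes). An unadjusted p below 0.05 with mutants higher was found in 18 of the 47 (limma), against 3.51% of all genes, and none passed after adjustment over all genes.

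**Figure D2:**
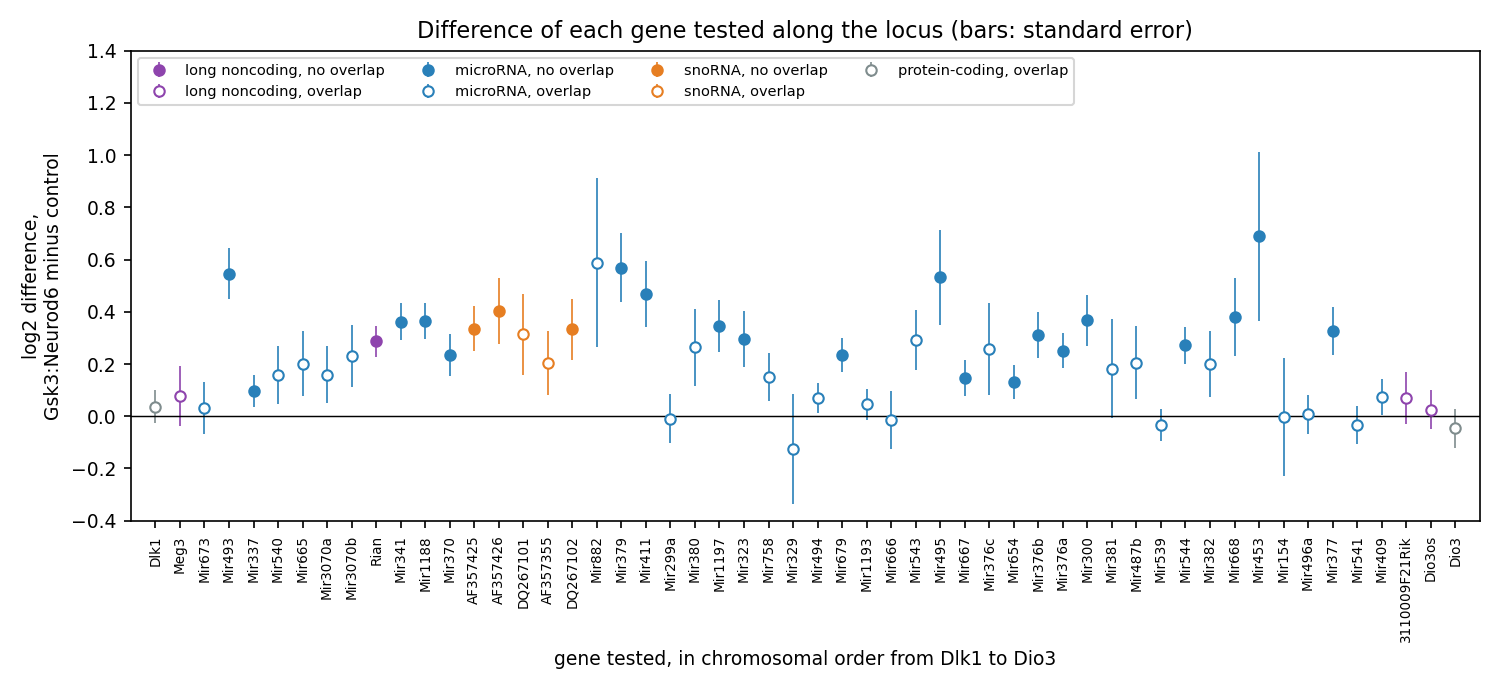
Log2 difference, Gsk3:Neurod6 minus control, for the 54 genes tested from Dlk1 to Dio3 in chromosomal order. Points are limma estimates, bars are standard errors, filled points mark genes whose mutant values all lie above all control values, and color marks the kind of gene. Most points lie above 0, and the genes at both ends lie close to it. Of these, Dlk1, 3110009F21Rik, Dio3os and Dio3 are below the background level, and Meg3 is drawn from the cluster named for it alone. Clusters with several names, such as that of Meg3 and Mir770, are not drawn.

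The microRNA genes of the domain make up most of this count. Of the 40 microRNA genes that are no members, 34 had a higher mutant mean, with a median difference of 0.20. In 17 of them the groups did not overlap, all with mutants higher (42.5%, against 6.34% of all genes).

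By position, members included and thus as a description only, the 7 microRNA genes before Rian had a median difference of 0.16, with 2 free of overlap (28.6%). The 4 from the start of Rian to before Mir379 had a median of 0.36, with 3 of the 4 free of overlap. The 32 from Mir379 on had a median of 0.22, with 15 free of overlap (46.9%). All those free of overlap had mutants higher, against 6.34% of all genes. Clusters with several names are not counted here. Of those whose identifiers come before that of Rian, Meg3 with Mir770 and Rtl1 with Mir431, with Mir432 and with Mir433 and Mir127 were higher without overlap, by 0.22 to 0.35. Those of Rtl1 with Mir434 and of Rtl1 with Mir136 and Mir3071 overlapped. Differences between these stretches were not tested.

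The 6 non-member genes with the largest differences between Dlk1 and Dio3 were 5 microRNA genes and a snoRNA gene. Mir379, the first gene of its cluster, had values of 5.84, 5.99 and 6.27 in mutants, against 5.38, 5.33 and 5.69 in controls, 0.57 ± 0.13 apart without overlap. Mir411, which shares a seed with it, had 6.59, 6.72 and 6.56 in mutants, against 6.07, 6.45 and 5.94 in controls, 0.47 ± 0.13 apart without overlap. Both were dim, below the background level, and every mutant value lay above every control value.

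Mir495 was dimmer still, with 4.36, 4.30 and 4.76 in mutants, against 3.55, 4.20 and 4.06 in controls. Mir882, also dim, had 5.22, 5.23 and 4.99 in mutants, against 4.61, 3.78 and 5.29 in controls. The groups of Mir882 overlapped, and its difference of 0.59 became 0.20 without control replicate 3. Mir668, above the background level, had 8.02, 8.09 and 8.09 in mutants, against 7.76, 7.32 and 7.98 in controls. Its difference of 0.38 likewise became 0.20 without that array. None of these 5 microRNA genes passed the test over all genes (limma, adjusted p = 0.495 for Mir379 and Mir411, 0.586 for Mir495, 0.755 for Mir882 and 0.648 for Mir668).

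Mir1188, a neighbor of Mir341, had the smallest p of the non-member microRNA genes of the domain. Its values were 8.61, 8.46 and 8.62 in mutants, against 8.26, 8.12 and 8.22 in controls. The groups were tight and apart, by 0.37 ± 0.07, but the adjusted p over all genes was 0.462 (limma). The mature 3p form of Mir1188 is at chr12:109611877-109611901 and the 5p form at chr12:109611841-109611861 (RefSeq, GRCm38.p6, plus strand, seed in capitals). They are shown to set beside those of Mir341, and no seed of this pair of genes is shared between them.
mmu-miR-1188-3p: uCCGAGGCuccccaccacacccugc
mmu-miR-1188-5p: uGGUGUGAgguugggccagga

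The 5 snoRNA genes of the domain, which belong to the C/D box class and lie in Rian, all had higher means in mutants, with a median difference of 0.33. In 3 the groups did not overlap, with mutants higher (60.0%, against 6.34% of all genes). AF357425 was the brightest, with 11.86, 11.89 and 11.89 in mutants, against 11.50, 11.41 and 11.73 in controls. AF357426 had 8.92, 9.10 and 8.70 in mutants, against 8.28, 8.66 and 8.57 in controls. Its difference of 0.40 ± 0.13 was the largest of the snoRNA genes (limma, adjusted p = 0.549). DQ267102 had 10.30, 10.33 and 10.30 in mutants, against 9.79, 9.88 and 10.26 in controls. On this gene control replicate 4 came close to the mutants while the other two controls did not.

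A lower mutant mean was found in 6 of the microRNA genes: Mir329, Mir539, Mir541, Mir666, Mir299a and Mir154. All of them overlapped. The largest of these differences was that of Mir329, -0.12 ± 0.21, whose mutant values of 12.26, 11.35 and 11.85 spanned the control values of 12.03, 11.72 and 12.08. Mir299a, with -0.01 ± 0.09, was below the background level. By identifier its cluster lay near that named for Meg3 alone, and the strand it reads is not given. A dimmer second cluster of Mir299a had a difference of 0.07. Dio3os and 3110009F21Rik, noncoding genes next to Dio3, had differences of 0.03 and 0.07, with overlap and below the background level.

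Outside the domain the shift was not seen at the nearest genes. Wars, Wdr25 and Begain, the 3 nearest genes tested before Dlk1, had differences of -0.10, -0.03 and -0.08. Ppp2r5c, B930059L03Rik and Dync1h1, the 3 nearest after Dio3, had differences of -0.03, 0.04 and 0.05. All 6 overlapped between groups, with adjusted p values between 0.823 and 0.95 (limma). Wdr20, a protein-coding gene on the same chromosome, was the member of smallest p in a list of 14 genes around the domain, with a difference of 0.17 (limma, adjusted p = 0.578). In that list 2 genes were higher (14.3%) and 0 lower without overlap, against 6.34% and 6.93% of all genes. The other 694 genes tested on chromosome 12 had a median difference of 0.00. Of these, 46 were higher (6.63%) and 50 lower (7.21%) in mutants without overlap, close to the shares of all genes.

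Small RNA genes elsewhere in the genome were set beside those of the domain. Of 435 microRNA genes elsewhere, 236 had a higher mutant mean, the median difference was 0.02, and 41 were higher without overlap (9.43%), against 17 of the 40 non-member microRNA genes of the domain (42.5%). Of 75 snoRNA genes elsewhere, 58 had a higher mutant mean, with a median of 0.07 and 13 higher without overlap (17.3%). The snoRNA genes elsewhere thus also leaned toward mutants, by less than those of the domain. No test of these shares was made, because genes of 1 domain are not independent.

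**Figure D3:**
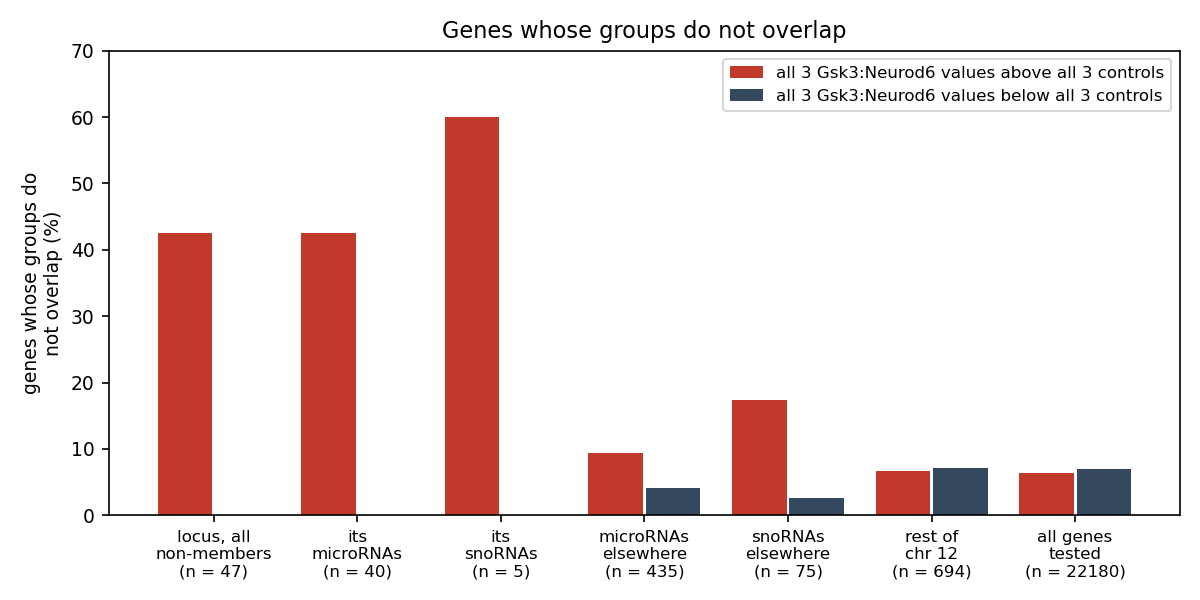
Percent of genes whose 3 mutant values all lie above (red, left bars) or all below (dark, right bars) the 3 control values, for the genes of the domain that are no members, its microRNA and snoRNA genes among them, small RNA genes elsewhere, the rest of chromosome 12 and all genes tested, with the number of genes under each pair of bars. The bars of the domain stand at 42.5% to 60.0% with mutants higher and at 0 with mutants lower, against 6.34% and 6.93% of all genes.

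The arrays did not contribute evenly. Over the 52 genes of the domain other than Dlk1 and Dio3, members included, the median deviation from each gene's mean was 0.14, 0.09 and 0.09 on the mutant arrays 5, 6 and 7, against -0.12, -0.14 and -0.02 on the control arrays 2, 3 and 4. Control replicate 3 held the lowest value for 22 of the 52 genes, control replicate 2 for 17 and control replicate 4 for 7. The same medians over all genes tested lay between -0.01 and 0.01. Without control replicate 3, the 47 non-member genes had a median difference of 0.20, and 22 of them were higher in mutants without overlap, against 10.9% of all genes.

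**Figure D4:**
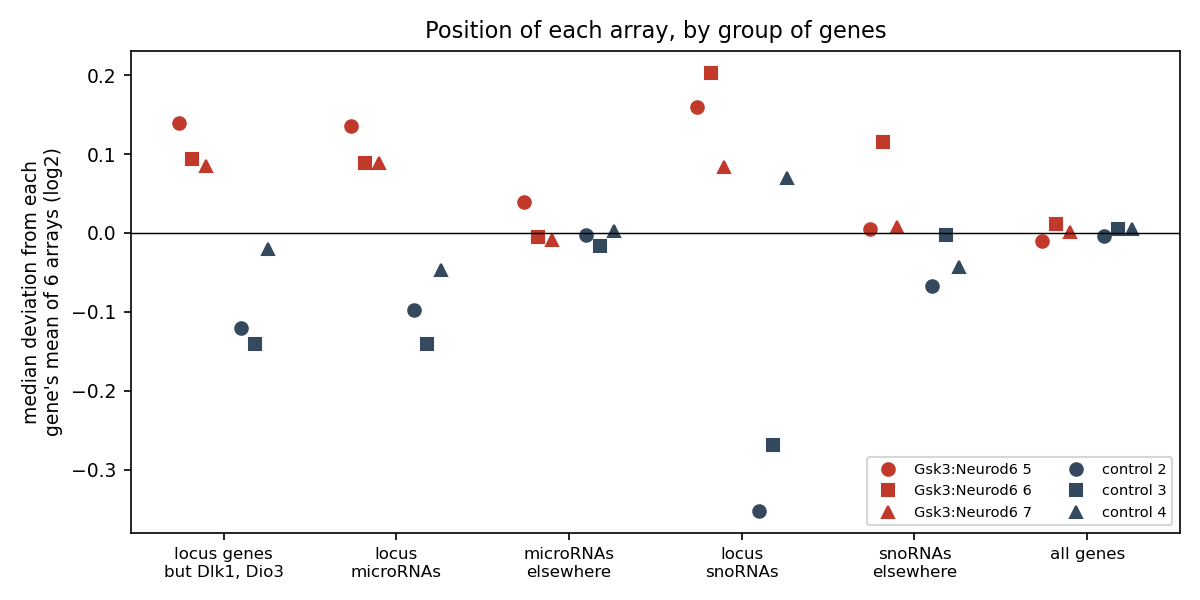
Median deviation of each array from each gene's mean over the 6 arrays (log2), by group of genes. Mutant arrays (red) are left of control arrays (dark), and the shape gives the replicate. For the domain without Dlk1 and Dio3 the mutant arrays stand at 0.09 to 0.14 and the control arrays at -0.14 to -0.02, and over all genes every array stands near 0.

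The start of Meg3 is shown because the maternal RNAs are made from there and the cluster of Meg3 and Mir770 was also higher in mutants without overlap. The window of 300 bases spans the start, most of it upstream, at chr12:109540746-109541045 on the plus strand (RefSeq, GRCm38.p6). Capitals mark motifs found on either strand: first TGCCGC (as GCGGCA), the core bound by ZFP57, a protein that guards imprinted methylation, then TGACGTCA, the site of CREB family factors, and last TATAAA, found on both strands as a pair of matches that overlap by 2 bases.
Meg3 promoter: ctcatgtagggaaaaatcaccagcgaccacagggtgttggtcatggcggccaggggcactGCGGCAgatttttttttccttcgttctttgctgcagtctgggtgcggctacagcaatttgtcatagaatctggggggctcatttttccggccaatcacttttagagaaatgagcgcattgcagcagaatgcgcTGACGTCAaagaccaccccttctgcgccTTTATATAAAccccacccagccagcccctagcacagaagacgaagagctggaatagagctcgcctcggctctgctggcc

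This window held 13 CpG dinucleotides, against a median of 7 over all promoters of the table. Of 32851 promoter windows of the same length, on both strands, the CREB site was found in 1.79%, the ZFP57 core in 11.6% and the TATA motif in 13.6%. The site of TCF/LEF factors of the Wnt pathway was searched as CTTTGAT and occurred in 3.73% of all windows. The GC box was searched as GGGCGG and occurred in 35.7%. Neither is among the letters of this window. In the windows of Rian, Mirg, Dlk1 and a second start of Meg3 none of the 5 motifs was found, and that of Dio3 held 4 GC boxes and 1 TATA motif. Matches of letters do not show that a factor binds.

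Genes that act on such loci were looked up in lists made for this purpose. Among 31 measured regulators of imprinting, 3 were higher (9.68%) and 6 lower (19.4%) in mutants without overlap, against 6.34% and 6.93% of all genes, with a median difference of -0.02. Uhrf1, which keeps methylation through cell division, had a difference of -0.17 and Dppa3, which protects maternal marks in the early embryo, one of 0.19. Dppa3 was below the background level. Among 21 genes for the processing of microRNAs and other small RNAs, 2 were higher and 2 lower without overlap (9.52% each), with a median of -0.03. Tarbp2, a partner of Dicer, had a difference of -0.15 and Snu13, a protein of snoRNA particles, one of 0.14. None of these genes passed the test over all genes (limma, adjusted p between 0.586 and 0.682 for the 4 named).

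Imprinted genes of other loci were looked up as well. Of 52 measured, 33 had a higher mutant mean, 9 were higher (17.3%) and 5 lower (9.62%) without overlap, against 6.34% and 6.93% of all genes, and the median was 0.04. None passed the test over all genes. Cdkn1c, a maternally expressed inhibitor of the cell cycle, had 8.32, 8.29 and 8.29 in mutants, against 8.53, 8.63 and 8.50 in controls, and Mest, a paternally expressed gene, had 10.87, 10.97 and 10.90 in mutants, against 10.75, 10.68 and 10.74 in controls. Both were free of overlap, in opposite directions (limma, adjusted p = 0.495 for Cdkn1c and 0.539 for Mest).

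Of 28 genes of thyroid hormone handling and response, the field of DIO3, 4 were higher (14.3%) and 0 lower without overlap, against 6.34% and 6.93% of all genes, with a median of 0.03. Nrgn, a postsynaptic protein gene that thyroid hormone induces, had 8.93, 8.94 and 8.86 in mutants, against 8.07, 8.62 and 8.71 in controls. Shh had a difference of -0.40, with overlap and below the background level. Of 17 genes linked to DLK1, 0 were higher and 1 was lower without overlap (5.88%). That gene was Hes1, a target of Notch, with a difference of -0.21. The adipogenic factor gene Pparg had a difference of 0.15, with overlap and below the background level. None of the 4 passed the test over all genes (limma, adjusted p between 0.578 and 0.777).

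The genes whose values ran most like those of Rian over the 6 arrays were sought among 397 genes above the background level with an SD of at least 0.2. They were Cntnap5a, Gabra3, Sv2b, Txnip and D630023F18Rik, with Pearson's r from 0.983 to 0.997. Rian was taken for this search after its values were seen. All 5 had higher means in mutants, by 0.37 to 0.65. This direction follows from the search, since the values of Rian split by group, and it is no separate result. The genes most like the cluster named for Meg3 alone were Odf3l2, Gm3317, Gm3173, Olfr98 and Gm5481, with r from 0.92 to 0.96 and differences between 0.02 and 0.15. These correlations are descriptions over 6 arrays and carry no p. Between members, r over the 6 arrays was 0.95 for Rian with Mir341 and 0.86 for Rian with Mir493, and after subtraction of group means it was 0.52 and -0.30.

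The targeted gene and the makeup of the tissue were checked on the same arrays. Gsk3b had values of 11.993, 12.056 and 12.145 in mutants, against 12.033, 12.001 and 11.986 in controls. A cluster value averages over the gene, so loss of exon 2 alone need not lower it, and it does not check the labels. Neurod6, the gene that carries Cre, had 11.24, 11.32 and 11.21 in mutants, against 11.91, 11.81 and 11.84 in controls (limma, adjusted p = 0.0977). Quartiles of the 6 arrays lay close together, with medians from 7.40 to 7.45. Xist was high on mutant array 6 only, at 11.89, and between 5.77 and 6.18 on the others.

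Other cell types were followed by lists of their markers, in which no gene passed the test over all genes (limma). Of 12 genes of radial glia and intermediate progenitors, 9 had a lower and 3 a higher mutant mean. Without overlap, 0 were higher and 6 lower (50.0%, against 6.93% of all genes), and the mean level of the list was 10.09 to 10.21 in mutants, against 10.25 to 10.30 in controls. Of 10 astrocyte markers, 8 had a higher and 2 a lower mutant mean. Without overlap, 1 was higher and 1 lower, and the mean level was 8.34 to 8.40 in mutants, against 8.22 to 8.36 in controls. Of 7 oligodendrocyte lineage markers, 5 had a higher and 2 a lower mutant mean. Without overlap, 2 were higher (28.6%) and 0 lower, with 7.999 to 8.042 in mutants, against 7.847 to 7.981 in controls. Of all genes, 6.34% were higher and 6.93% lower without overlap. For 15 excitatory neuron markers, Neurod6 among them, the mean level was 10.47 to 10.58 in mutants, against 10.57 to 10.60 in controls. The mutant mean was higher in 5 and lower in 10, with 1 higher (6.67%) and 2 lower (13.3%) without overlap. The 2 lower were Neurod6, the gene that carries Cre, with a difference of -0.60, and Slc17a6, with -0.11. The mean level thus includes the gene that carries Cre. The lists for interneurons, microglia and vessel cells held no gene without overlap. The part of these differences in the values of the domain was not tested.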

How the data were processed

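Log2 values per transcript cluster were used as deposited; the authors made them with Partek (6.12.0712, per the submitters' processing notes and methods) from RNA prepared with the miRNeasy kit. Summarization, normalization and build are not given in the sources used here. Of 41345 clusters, 23521 had 1 gene symbol, 1820 several and 16004 none in the platform annotation. The brightest single-symbol cluster was taken for each of 22180 genes, of which 21994 matched the mouse gene table (GRCm38.p6), used for gene order. Columns without a sample numbered 0. Differences were tested with limma 3.58.1 in R 4.3.3 (lmFit, eBayes, two-sided, Benjamini-Hochberg over all genes, no covariate), checked on simulated data, and tables were made with pandas 2.3.3. Clusters with several names were fitted over all 41345 clusters. An exact permutation test of 3 against 3 embryos cannot go below p = 0.1. The number of arrays limits the precision, and littermates were treated as independent.

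The members and gene lists were chosen with earlier results of these data known. Named were the members, the 6 other genes between Dlk1 and Dio3 with the largest absolute difference, Rtl1, 3 genes on each side, in each list the 2 genes of smallest p, and the 5 genes most like Meg3 in Pearson's r. Other locus genes and those most like Rian were named after their values were seen. The lists of choroid plexus, forebrain nuclei, meninges and blood had 0 to 2 genes higher and 0 or 1 lower without overlap. The largest shares were 14.3% higher and 12.5% lower, against 6.34% and 6.93% of all genes. Alternatives were quantile normalization or median centring of the arrays, no dim genes, each single-symbol cluster tested by itself, clusters averaged per gene, array weights, Xist as covariate, a robust prior with intensity trend, an unmoderated test and leaving out each array. Single clusters for shared names and counts without control replicate 3 were added after seeing the data.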

Additional observations from a re-analysis of the deposited data

How the results depend on the processing

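Rian, Mir341, Mir493 and Mir453 kept a higher mutant mean under every alternative run, with differences of 0.25 to 0.31, 0.32 to 0.41, 0.45 to 0.61 and 0.26 to 0.96. With the intensity trend and robust prior, which leaves differences as they are, Rian (0.29), Mir341 (0.36) and Mir493 (0.55) crossed the adjusted threshold. Since they were chosen on this contrast, that is no test of them, and the cause was not tested. Leaving out 1 array reversed the small differences of Meg3 (-0.0432 without control replicate 3, the lowest of a range up to 0.193), Dlk1 (-0.0005 without control replicate 3, the lowest of a range up to 0.0554) and Dio3 (0.0182 without mutant replicate 5, the highest of a range down to -0.0951). Genes past the adjusted threshold numbered 9 with dim genes left out, 27 with the trend and 0 in the unmoderated test, against 1. With dim genes left out, fewer genes were tested: 12942 in all, with 26 of the 47 other locus genes among them. Higher in mutants without overlap were 935 of the 12942 (7.2%) and 11 of the 26. With 1 array left out, the fewer samples gave 2281 to 2965 genes higher and 2371 to 3091 lower without overlap. Of the other locus genes 0 or 1 was lower (Mir299a, on a cluster below the background level, without mutant replicate 5). Median centring gave 1077 higher and 1579 lower over all genes, quantile normalization 1580 and 1918. The median difference of the 47 other locus genes lay between 0.20 and 0.23. No paired analysis was possible because the sources used here do not assign the litters to embryos. Dim clusters, among them those of Dlk1 and Dio3, and 3 arrays a group limit what can be seen, and short clusters cannot separate host RNA, hairpin and mature microRNA.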
